A study of Mus musculus with 10 samples.

Results

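The genes described here mark monocytes, resident macrophages and alternatively activated macrophages, except Csf1, which encodes a growth factor that acts on these cells. The genes are a list of 34 gene symbols chosen by name, and all 34 were found among the 17016 gene symbols of the deposited values. All 34 also passed the filter on low values, at least 1 normalised CPM (reads of a gene scaled to a common library size) in at least 5 of the 10 libraries, as did 14548 genes in all. The tissue was whole skin, and the mice were BALB/c females at an age of 10 to 11 weeks. Both groups received a 5% cream of imiquimod, an agonist of TLR7 that brings about psoriasis-like inflammation, on the shaved back once a day for 5 days. The quinpirole group (5 libraries) also had 5 intraperitoneal injections of quinpirole, which activates the dopamine receptor DRD2, over those days, and the other 5 libraries are labelled vehicle. The comparison asks how skin inflamed by imiquimod differed with the agonist. No skin free of imiquimod was analysed here, and no level is read against that of normal skin.

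Monocytes leave the blood for inflamed skin along chemokine gradients, above all through the receptor CCR2, and there become macrophages or dendritic cells. Resident macrophages of the dermis live on CSF1, which signals through the receptor CSF1R, take up debris through scavenger and mannose receptors, and are a main source of complement C1q. Cytokines of type 2 immunity induce genes of alternative activation such as Arg1, Chil3 and Retnla, while interferon-gamma and bacterial products induce Nos2. Several of these genes are also used by other cells of the skin: Lyve1 by lymphatic endothelium, Gpnmb by melanocytes, Arg1 by keratinocytes, Cd14 and Lyz2 by neutrophils, and Csf1r and Adgre1 by Langerhans cells.

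Recovered reads per library ran from 6763367 to 8361877, so that 1 read was worth 0.119 to 0.146 CPM. The macrophage genes were present in every library: Mrc1, the mannose receptor, had between 1023 and 4277 reads, and C1qa between 352 and 988. Few members were scarce, with Nos2 at 5 to 17 reads per library, Trem2 at 5 to 25 and Cx3cr1 at 9 to 29. Vehicle replicate 2 stood apart. It was the lowest vehicle library for 26 of the 34 members and the lowest of all 10 libraries for 24, whereas it was the lowest vehicle library for 23.4% of the 14548 tested genes. The summed level of 10 pan-leukocyte genes was 448 CPM there against a vehicle median of 807. Results are therefore also given without it. In whole skin, fewer cells of a type and less RNA per cell cannot be told apart. Whether the samples of a group are separate mice is not stated, and the p-values then cover only sample-to-sample spread, which may be technical.

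**Figure D1:**
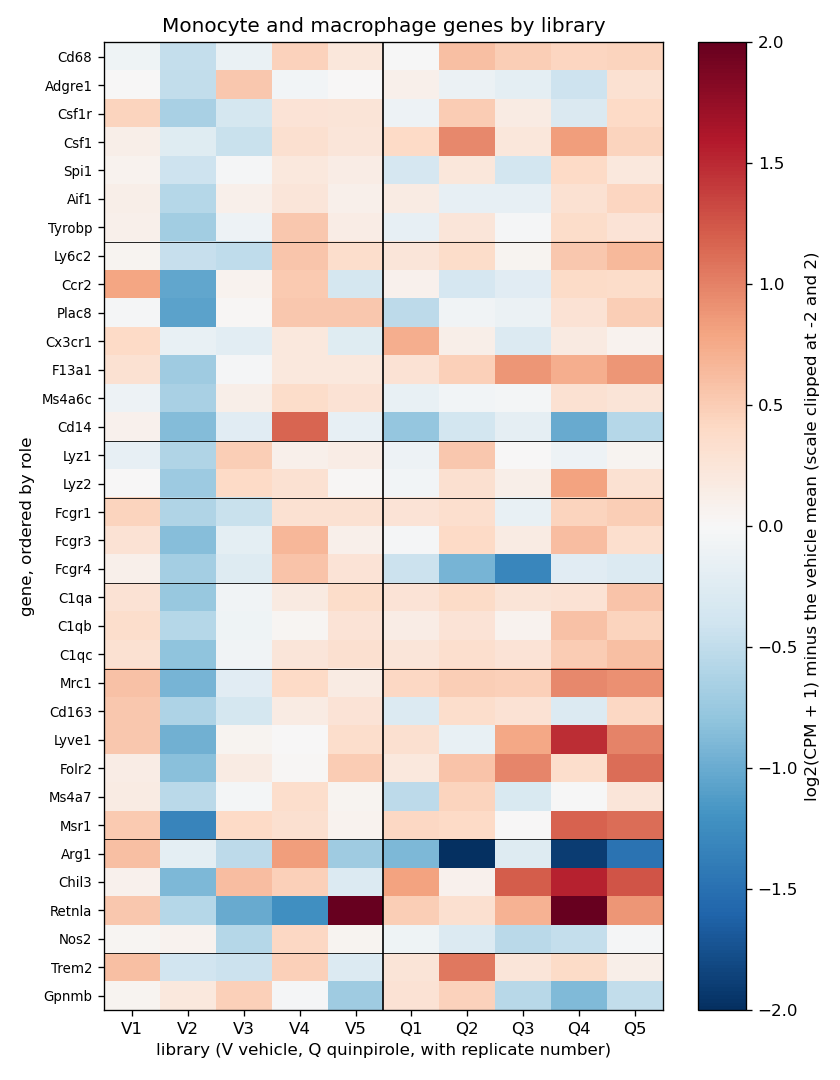
Level of each of the 34 genes (vertical axis, ordered by role) in each library (horizontal axis), as log2(CPM + 1) minus the vehicle mean, in colour from blue (lower) to red (higher), clipped at the ends of the scale. Vehicle replicate 2 is the lowest vehicle library for 26 of the 34 genes, and Arg1 and Fcgr4 are mostly blue in the quinpirole libraries where Mrc1, F13a1 and Chil3 are mostly red.

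No member passed the test between quinpirole and vehicle. Limma called 0 of 34 at an adjusted p under 0.05, and 3 of the 14548 tested genes, or 0.0206%. Means leaned toward higher values, with a log2 fold change above 0 in 27 of 34 members, where 49.6% of tested genes had one. The median log2 fold change was 0.22, beside -0.0021 over all tested genes. At an unadjusted p under 0.05 stood 8 members, against 11.4% of tested genes. They were 6 with higher values (Mrc1, F13a1, Folr2, Csf1, Cd68 and Chil3; background 6.92%) and 2 with lower values (Arg1 and Fcgr4; background 4.47%). The groups overlapped for all 34, while 2.20% of tested genes had groups that did not overlap. The lean rested in large part on vehicle replicate 2. Without it 18 of 34 members had a log2 fold change above 0 (49.9% of tested genes), the median was 0.10, and 8 members had an unadjusted p under 0.05 (background 11.0%), 5 of them higher (background 5.88%) and 3 lower (background 5.15%), with Cd14 among them and Cd68 not. Over single libraries left out, the members at an unadjusted p under 0.05 numbered from 5 (without quinpirole replicate 3 or 5) to 11 (without vehicle replicate 5). With the mean of skeletal muscle genes as a covariate they numbered 2 (background 8.98%), and the median was 0.069. With that of hair shaft genes they numbered 7 (background 11.0%), and the median was 0.15. Both covariates differed between the groups, so each can take up part of the group difference. Muscle genes had a median log2 fold change of 1.05, with 20 of 33 tested at an unadjusted p under 0.05 by limma. Hair shaft genes were lower with quinpirole in 41 of 41 tested (median -1.54), with 0 at that p. EdgeR called 0 members on the recovered reads, where it called 0.0344% of tested genes, and had 10 members at an unadjusted p under 0.05 (background 11.6%). DESeq2 also had 10 (background 11.8%) and called 1, Arg1, where it called 1.51% of tested genes. The log2(CPM + 1) scale of these values understates the change of low genes.

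**Figure D2:**
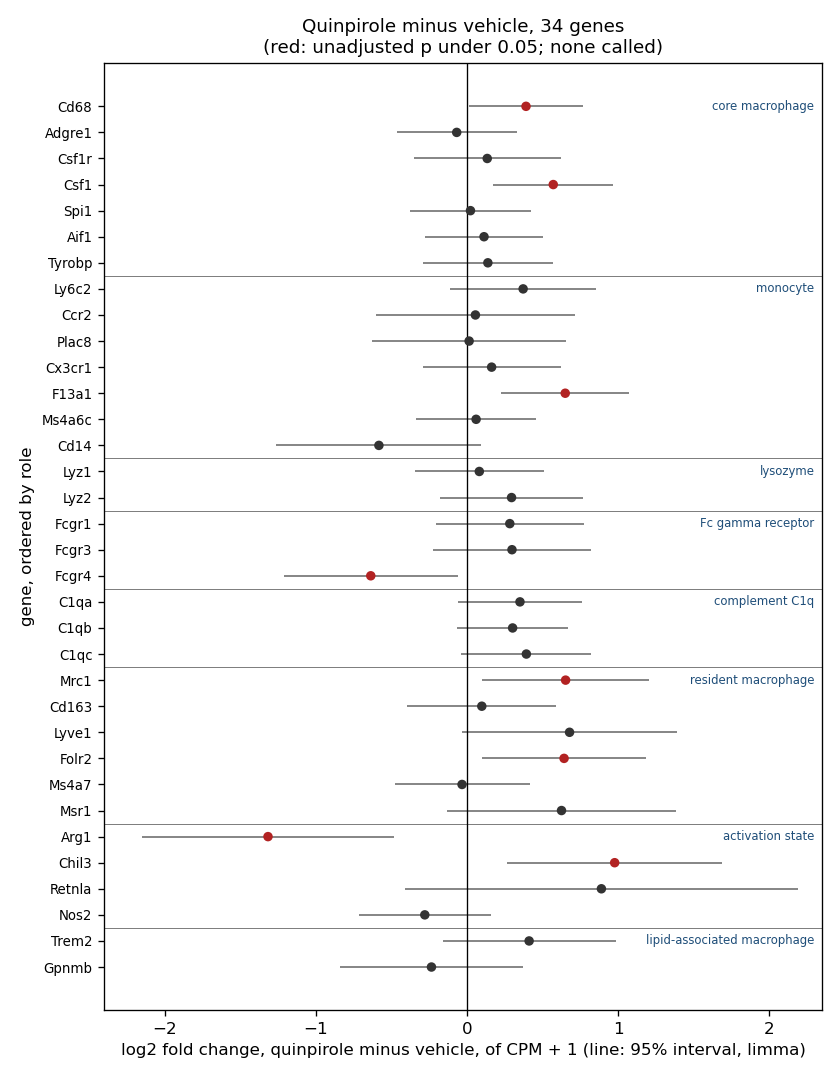
Log2 fold change of quinpirole minus vehicle (horizontal axis, log2 of CPM + 1) for each gene (vertical axis, by role), with its 95% interval from limma as a line and red points for an unadjusted p under 0.05. The 6 red points on the right are Cd68, Csf1, F13a1, Mrc1, Folr2 and Chil3, and the 2 on the left are Fcgr4 and Arg1.

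Csf1 had higher values with quinpirole in most libraries, while those of its receptor Csf1r overlapped. Csf1, the growth factor, measured 37.6, 29.3, 25.1, 43.5 and 41.3 CPM in the vehicle libraries 1 to 5 and 45.9, 68.1, 40.7, 62.6 and 47.6 in the quinpirole libraries 1 to 5. In 4 of 5 quinpirole libraries it was above every vehicle library, and replicate 3 lay inside the vehicle range. The means were 35.4 ± 7.89 and 53.0 ± 11.7 (SD, n = 5 each; log2 fold change 0.57, SE 0.18, adjusted p by limma = 0.259), and leaving out vehicle replicate 2 gave 0.51. Csf1r, its receptor, measured 230.0, 107, 131, 204 and 201 in vehicle and 156, 239, 188, 137 and 222 with quinpirole. These ranges lay almost on top of each other, with a log2 fold change of 0.13 (95% interval -0.35 to 0.62), which was -0.025 without vehicle replicate 2. Over the 10 libraries Csf1 and Csf1r had Pearson's r = 0.49 (permutation p = 0.149, 0.172 adjusted over 15 relations) and Spearman's rho = 0.48 (0.166, 0.227 adjusted), with r = 0.17 without the 2 libraries farthest from the median and 0.52 (permutation p = 0.153, 0.191 adjusted) within groups.

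Among the pan-macrophage genes Cd68 had the higher values with quinpirole, and Adgre1, Aif1 and Tyrobp had intervals that include 0. Cd68, a lysosomal glycoprotein of phagocytes, measured 32.3, 24.3, 31.2, 47.2 and 40.1 CPM in vehicle and 33.9, 52.4, 48.5, 46.4 and 46.8 with quinpirole. Quinpirole replicate 1 was low in its group, and vehicle replicate 4 was above 3 of the 5 quinpirole libraries. Cd68 had a log2 fold change of 0.39 (SE 0.17, limma adjusted p = 0.408), or 0.27 without vehicle replicate 2. Its level ran against the mean of the hair shaft genes, with Pearson's r = -0.76 (permutation p = 0.0142, 0.0372 adjusted over 15 relations) and Spearman's rho = -0.59 (0.0793, 0.149 adjusted), and r = -0.86 without the 2 libraries farthest from the median. Hair shaft genes were lower with quinpirole in 41 of 41 tested (median log2 fold change -1.54) and Cd68 was higher, which enters these values. Within groups, as deviations from each group's mean, r was -0.74 (permutation p = 0.0222, 0.0667 adjusted). With the hair shaft mean as a covariate the log2 fold change of Cd68 was 0.26. Adgre1, an adhesion receptor used as a surface marker of mouse macrophages, measured 150.2, 106, 217, 143 and 150.2 CPM in vehicle and 159.6, 137, 130.3, 112 and 185 with quinpirole, and its highest value was vehicle replicate 3. Its log2 fold change was -0.067 with a 95% interval of -0.46 to 0.32; without vehicle replicate 3 the sign turned, at 0.067. Aif1, which encodes the calcium-binding protein IBA1, and Tyrobp, the signalling adaptor DAP12, had log2 fold changes of 0.11 (95% interval -0.27 to 0.50) and 0.14 (-0.29 to 0.56), both below 0 without vehicle replicate 2, at -0.027 and -0.034.

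Spi1 encodes PU.1, the ETS factor that sets the myeloid program and binds promoters of many of these genes. It measured 16.5, 11.5, 15.3, 18.3 and 17.5 CPM in vehicle and 12.1, 18.5, 11.8, 21.0 and 18.2 with quinpirole. The log2 fold change was 0.024 (95% interval -0.37 to 0.42), and the sign turned without vehicle replicate 2 (-0.078). Promoter windows of 300 bases (RefSeq, GRCm38.p6, mostly upstream of the start) were matched for 24 of the 34 members. The letters GAGGAAGT, a PU.1 consensus searched on both strands, occurred in windows of 5 of these 24 genes: C1qc, F13a1, Fcgr4, Ly6c2 and Retnla. Of all 32851 windows 3.20% held them, and of 27025 genes 3.69%. Among these 5 genes, F13a1 had higher and Fcgr4 lower values with quinpirole. A match is a description of letters and not a binding site. The 3 matches that lie upstream of the start together with their flanking bases are shown to make the element visible, 5′ to 3′ on the strand of the gene, with the 8 letters or their reverse complement in capitals. They lie at chr4:136893082-136893129 (minus strand) for C1qc, chr15:75112052-75112099 (minus strand) for Ly6c2 and chr16:48842391-48842438 (plus strand) for Retnla. The motif search was chosen after the values were seen.
C1qc: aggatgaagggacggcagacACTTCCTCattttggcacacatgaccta
Ly6c2: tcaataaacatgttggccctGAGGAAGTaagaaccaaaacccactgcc
Retnla: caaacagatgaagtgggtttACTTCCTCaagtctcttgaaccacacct

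Of the 7 monocyte genes 6 had a log2 fold change above 0, and F13a1 alone had an unadjusted p under 0.05. Without vehicle replicate 2, 3 of the 7 were above 0. Ccr2, the receptor that draws monocytes out of the blood, measured 94.0, 25.9, 56.8, 78.0 and 42.0 CPM in vehicle and 57.6, 42.8, 45.8, 70.5 and 70.2 with quinpirole. Vehicle replicate 1 held the highest and vehicle replicate 2 the lowest value, and every quinpirole library lay between them. Its log2 fold change was 0.057 with a 95% interval of -0.60 to 0.71, and it was -0.20 without vehicle replicate 2. Ly6c2, the antigen of classical monocytes, measured 5.32 ± 2.03 and 6.92 ± 1.26 CPM (SD, n = 5 each), with a log2 fold change of 0.37 and an interval of -0.11 to 0.85. Of its 50-base stretches, 30.8% are shared with Ly6c1, so that reads may have been divided between them. Plac8, a monocyte gene of unclear function, and Ms4a6c, a membrane protein of the MS4A family, had log2 fold changes of 0.015 and 0.061, each turning below 0 without vehicle replicate 2 (-0.25 and -0.10). Cx3cr1, the fractalkine receptor, averaged 1.72 ± 0.560 and 2.08 ± 0.823 CPM, which is 9 to 29 reads per library.

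F13a1, the A subunit of coagulation factor XIII, is expressed by monocytes and by dermal macrophages. It measured 203, 99.7, 162, 189 and 190.0 CPM in vehicle and 200.3, 229, 302, 271 and 305 with quinpirole. In 4 of 5 quinpirole libraries the level was above all vehicle libraries, and quinpirole replicate 1 stood just under vehicle replicate 1. The means were 169 ± 41.5 and 261 ± 45.7 (SD, n = 5 each; log2 fold change 0.65, SE 0.19, adjusted p by limma = 0.237). The value was 0.47 without vehicle replicate 2 and 0.41 with the skeletal muscle mean as a covariate. On mm10, F13a1 lies on chromosome 13 from 36867178 to 37050244 on the minus strand.

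Cd14, the co-receptor for lipopolysaccharide, had lower values with quinpirole that rested largely on 1 vehicle library. It measured 33.9, 16.9, 27.1, 72.8 and 28.4 CPM in vehicle and 18.2, 24.4, 28.1, 15.2 and 21.0 with quinpirole. Vehicle replicate 4 was far above the other 9 libraries, and quinpirole replicate 4 was the lowest of the 10. The log2 fold change was -0.58 (95% interval -1.25 to 0.090, limma adjusted p = 0.500), -0.29 without vehicle replicate 4 and -0.80 without vehicle replicate 2. Neutrophil markers, of which 12 of 13 tested had lower values with quinpirole (median log2 fold change -0.60), moved with Cd14. By limma 1 of the 13 had an unadjusted p under 0.05 (background 11.4%), and 9 did without vehicle replicate 2 (background 11.0%). The list holds Trem1, Itgam, Il1b and Cxcl2, which monocytes also express, and its members Ly6g, Elane and Ngp were not found in the values. Over the 10 libraries Cd14 and the mean of these markers had Pearson's r = 0.92 (permutation p = 0.00084, 0.00416 adjusted over 15 relations) and Spearman's rho = 0.84 (0.00394, 0.0148 adjusted). Without the 2 libraries farthest from the median, vehicle replicates 1 and 4, r was 0.64, and as deviations from the group means it was 0.89 (permutation p = 0.00731, 0.0327 adjusted). The part of neutrophils in the Cd14 values was not tested.

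**Figure D3:**
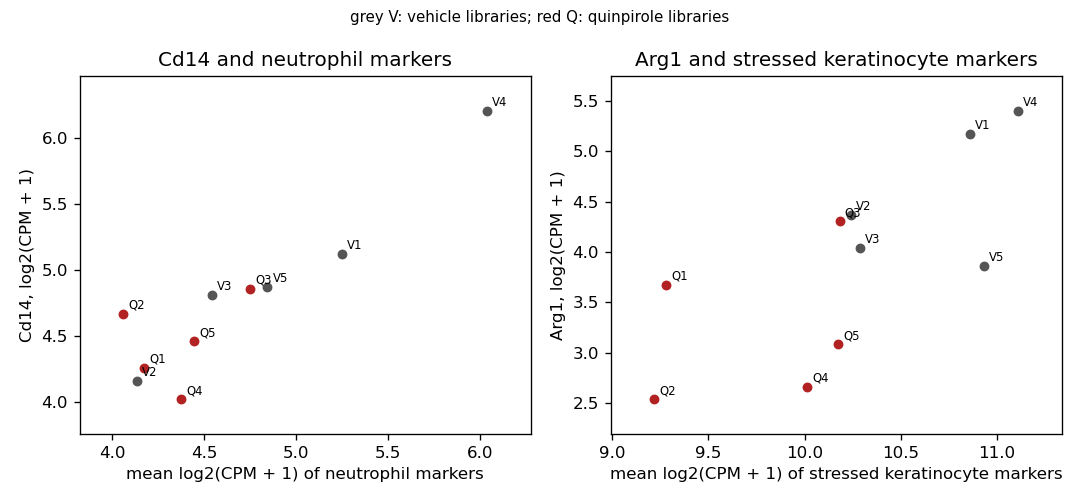
Level of Cd14 against the mean of neutrophil markers (left) and of Arg1 against the mean of stressed keratinocyte markers (right), all as log2(CPM + 1), 1 point per library, grey for vehicle and red for quinpirole. On the left, vehicle replicates 4 and 1 stand at the upper end, and on the right 4 of the 5 quinpirole libraries lie below every vehicle library for Arg1.

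Lysozyme is made from a pair of neighbouring genes, Lyz2 on chromosome 10 from 117277331 to 117282321 on the minus strand and Lyz1 on the same strand from 117287797 to 117292868. Lyz2, the form of macrophages and neutrophils, measured 387, 231, 509.5, 473 and 389 CPM in vehicle and 370.2, 478, 416, 672 and 475 with quinpirole, and quinpirole replicate 4 was the highest. Its log2 fold change was 0.30 (95% interval -0.17 to 0.76), or 0.11 without vehicle replicate 2 and 0.024 with the muscle covariate. Lyz1, the form best known from Paneth cells of the gut, measured 27.6, 20.1, 44.1, 33.4 and 34.4 CPM in vehicle and 28.9, 45.5, 31.2, 28.6 and 32.3 with quinpirole (log2 fold change 0.082, 95% interval -0.34 to 0.50; -0.067 without vehicle replicate 2). Per kilobase of exon, the mean level over the 10 libraries was 334 CPM for Lyz2 and 25.8 for Lyz1. Of the 50-base stretches of the Lyz1 transcript 16.1% also occur in Lyz2, so part of the Lyz1 level may come from Lyz2 reads. The levels of this pair had r = 0.61 (permutation p = 0.0608, 0.083 adjusted) and rho = 0.54 (permutation p = 0.115, 0.172 adjusted), a relation that rested on vehicle replicate 2 and quinpirole replicate 2, since r was 0.15 without them. Within groups r was 0.62 (permutation p = 0.09, 0.15 adjusted).

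Of the activating Fc gamma receptors, which bind antibody on phagocytes, Fcgr4 differed in direction from Fcgr1 and Fcgr3. Fcgr4 measured 21.1, 11.8, 16.2, 29.4 and 23.9 CPM in vehicle and 14.3, 9.75, 7.35, 16.5 and 16.0 with quinpirole. Quinpirole replicates 2 and 3 were below every vehicle library, the other 3 lay within the vehicle range, and all 5 were below the vehicle median. The means were 20.5 ± 6.81 and 12.8 ± 4.04 (SD, n = 5 each; log2 fold change -0.64, SE 0.26, adjusted p by limma = 0.381). Leaving out vehicle replicate 2 gave -0.81 on the log2 scale, and over the other alternatives it stayed below 0. Fcgr3, which lies near Fcgr4 on chromosome 1, measured 44.7, 19.6, 31.7, 58.2 and 39.1 in vehicle and 35.8, 48.5, 40.9, 56.5 and 46.1 with quinpirole, a log2 fold change of 0.30 (95% interval -0.22 to 0.82) that was 0.084 without vehicle replicate 2. Fcgr1, the high-affinity receptor, stood at 0.28 (-0.20 to 0.77), or 0.13 without vehicle replicate 2. The difference between Fcgr4 and the other receptors was not itself tested. Fcgr3 shares 10.2% of its 50-base stretches with the inhibitory receptor Fcgr2b, and Fcgr4 shares none with another gene.

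The C1q genes encode the A, B and C chains of C1q, the part of the first complement component that recognises its targets. They lie side by side on the minus strand of chromosome 4 in mm10, C1qb from 136880129 to 136886187, C1qc from 136889804 to 136893065 and C1qa from 136895917 to 136898803. C1qa measured 105, 50.1, 81.4, 96.7 and 111 CPM in vehicle and 103, 112, 102, 104 and 127 with quinpirole. C1qb measured 113, 59.2, 83.1, 90.9 and 106 CPM in vehicle and 97.7, 107, 92.3, 133 and 121 with quinpirole. C1qc measured 157, 72.0, 119.8, 150.0 and 159 CPM in vehicle and 150.1, 159.9, 153, 179 and 193 with quinpirole. Vehicle replicates 2 and 3 were the low libraries for each chain, and the remaining vehicle libraries lay within or near the range of the quinpirole libraries. Their log2 fold changes were 0.35, 0.30 and 0.39 (SE 0.19, 0.17 and 0.19; limma adjusted p = 0.498, 0.518 and 0.472), and 0.16, 0.16 and 0.19 without vehicle replicate 2. With the muscle covariate they were 0.20, 0.054 and 0.18.

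The chains followed each other closely over the libraries. C1qa and C1qc had Pearson's r = 0.98 (permutation p = 0.00023, 0.00172 adjusted over 15 relations) and Spearman's rho = 0.92 (0.00049, 0.00367 adjusted), and r was 0.76 without vehicle replicates 2 and 3, the libraries farthest from the median. For C1qb and C1qc r was 0.94 and rho 0.94 (permutation p = 9e-05 and 0.00016, 0.00135 and 0.0024 adjusted), with r = 0.88 without the 2 farthest. For C1qa and C1qb r was 0.90 and rho 0.84 (permutation p = 0.00111 and 0.00361, 0.00416 and 0.0148 adjusted), with r = 0.54 without the 2 farthest. As deviations from the group means, r for these pairs was 0.97, 0.93 and 0.87 (permutation p adjusted over 15 relations = 0.0188, 0.0156 and 0.0327). Per kilobase of exon, the mean levels over the 10 libraries were 95.6 CPM for C1qa, 92.2 for C1qb and 77.3 for C1qc. The length was that of all annotated exons. For C1qc it was 1931 bases, where its protein-coding transcripts hold 1154 distinct 50-base stretches. For C1qa it was 1040 bases with 991 stretches, and for C1qb 1088 with 1039. The C1qc level per kilobase may thus be too low, and the order of the genes is not read.

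**Figure D4:**
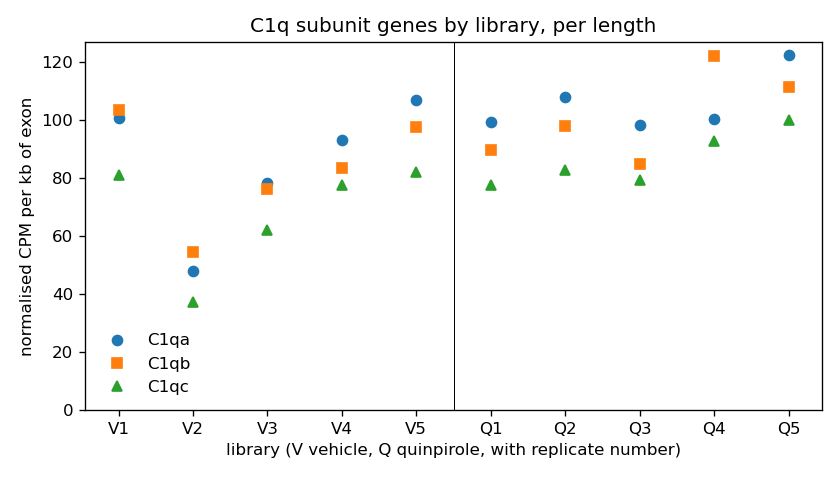
Level of C1qa (circles), C1qb (squares) and C1qc (triangles) in each library, in normalised CPM per kilobase of exon on an axis from 0. The length is that of all annotated exons, which may place C1qc too low beside the other genes. All 3 genes are lowest in vehicle replicate 2 and move together over the libraries.

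Of the 6 genes of resident macrophages, Mrc1, Folr2, Lyve1 and Msr1 had higher means with quinpirole, and Cd163 and Ms4a7 had log2 fold changes near 0. Mrc1, the mannose receptor CD206, measured 420.4, 146, 238, 368 and 314 CPM in vehicle and 373, 392, 389, 543 and 528 with quinpirole. Vehicle replicate 1 reached into the quinpirole range, vehicle replicates 2 and 3 were low, and quinpirole replicates 4 and 5 were the highest of the 10. The means were 297 ± 108 and 445 ± 83.3 (SD, n = 5 each; log2 fold change 0.65, SE 0.25, adjusted p by limma = 0.349). Folr2, a folate receptor of resident macrophages, measured 16.3, 7.83, 16.6, 14.9 and 21.4 CPM in vehicle and 17.1, 22.4, 29.8, 19.1 and 33.0 with quinpirole, with 3 of 5 quinpirole libraries above all vehicle libraries. Its means were 15.4 ± 4.89 and 24.3 ± 6.88 (log2 fold change 0.64, SE 0.25, adjusted p by limma = 0.349). Lyve1, a hyaluronan receptor, measured 21.0, 6.83, 14.8, 14.3 and 18.4 CPM in vehicle and 17.9, 12.7, 24.9, 41.2 and 29.0 with quinpirole, with quinpirole replicate 2 below 4 of the 5 vehicle libraries and quinpirole replicate 4 the highest. Its log2 fold change was 0.68 (95% interval -0.023 to 1.38, limma adjusted p = 0.458). Msr1, the class A scavenger receptor, measured 19.97, 4.84, 18.2, 17.2 and 14.2 CPM in vehicle and 18.4, 18.2, 13.6, 32.0 and 30.7 with quinpirole, and vehicle replicate 2 was far below the rest (log2 fold change 0.63, 95% interval -0.13 to 1.38, limma adjusted p = 0.520).

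Cd163, the haemoglobin scavenger receptor, measured 139, 61.9, 75.3, 108 and 116 CPM in vehicle and 78.8, 122, 117, 79.4 and 129 with quinpirole, and the groups overlapped over nearly their whole range (log2 fold change 0.10, 95% interval -0.39 to 0.59; -0.057 without vehicle replicate 2). Ms4a7, a membrane protein of macrophages, had -0.032 (-0.47 to 0.41), a sign that turned without quinpirole replicate 1 (0.090). Over the libraries Mrc1 and Cd163 had Pearson's r = 0.63 (permutation p = 0.0442, 0.0737 adjusted over 15 relations) and Spearman's rho = 0.66 (0.0445, 0.0953 adjusted), but r was -0.12 without vehicle replicates 2 and 3, so the relation rested on those libraries. Mrc1 and Folr2 had Pearson's r = 0.76 (permutation p = 0.0169, 0.0372 adjusted over 15 relations) and Spearman's rho = 0.54 (0.113, 0.172 adjusted), and r was 0.30 without the same libraries. As deviations from the group means r was 0.70 (permutation p = 0.047, 0.101 adjusted) for the first pair and 0.60 (permutation p = 0.116, 0.159 adjusted) for the second.

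The values of Mrc1, Folr2, Lyve1 and Msr1 were smaller without vehicle replicate 2 and with a term for muscle genes in the fit. Without vehicle replicate 2 their log2 fold changes were 0.42, 0.44, 0.44 and 0.30. Of 33 tested skeletal muscle genes 32 had higher values with quinpirole, and their summed level was 2010.0 to 7262 CPM in vehicle and 4133 to 19548 with quinpirole, highest in quinpirole replicate 4. When the fit held the muscle mean as a covariate, the log2 fold changes were 0.38, 0.39, 0.013 and 0.20. Under that covariate 2 members, Csf1 and Fcgr4, had an unadjusted p under 0.05, where 8.98% of tested genes did (4.39% higher and 4.60% lower). Lymphatic markers also had higher values, with 6 of 7 tested above 0 (median log2 fold change 0.60, or 0.35 without vehicle replicate 2). Their summed level was 176 to 296 CPM in vehicle and 213 to 340.0 with quinpirole. Lyve1 and the mean of these markers had r = 0.62 (permutation p = 0.0577, 0.083 adjusted) and rho = 0.35 (permutation p = 0.33, 0.381 adjusted), with r = 0.056 without vehicle replicates 2 and 3 and 0.44 (permutation p = 0.223, 0.258 adjusted) within groups. The part of muscle or lymphatic tissue in these values was not tested.

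**Figure D5:**
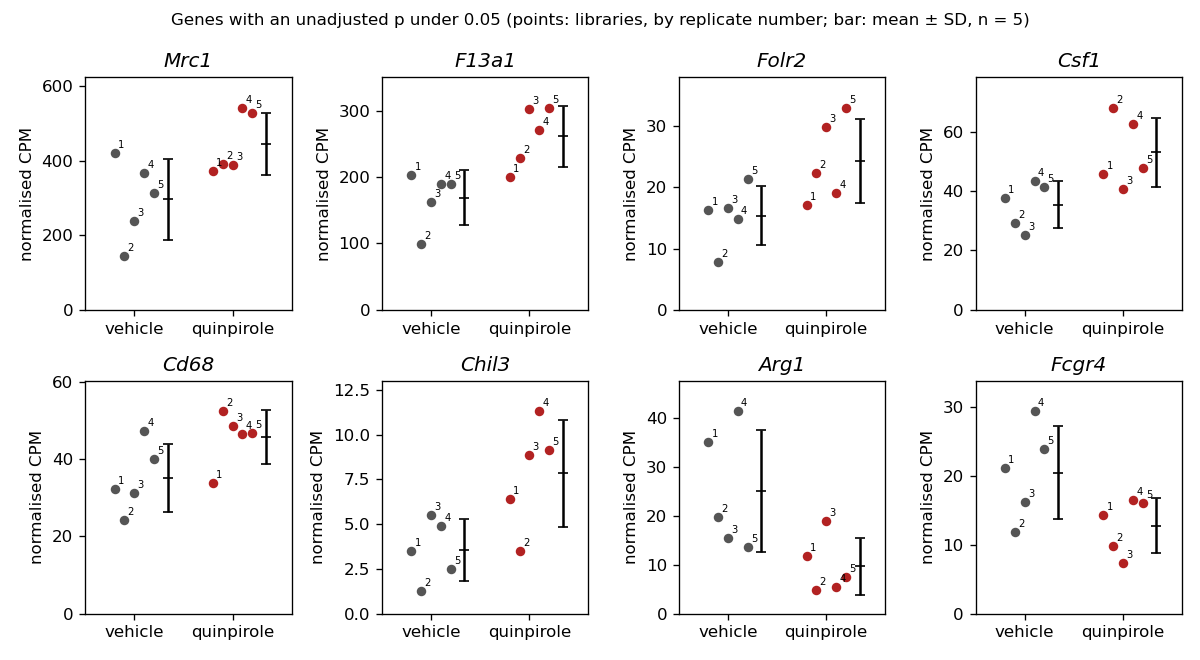
Level of the 8 genes with an unadjusted p under 0.05, in normalised CPM on axes from 0, with 1 numbered point per library and the mean ± SD (n = 5) of each group as a bar. For Csf1, F13a1 and Chil3, 4 of 5 quinpirole points lie above all vehicle points, and for Arg1 4 of 5 lie below them, while every gene has at least 1 quinpirole library inside the vehicle range.

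The genes of alternative activation differed in direction, with lower values of Arg1 and higher values of Chil3. Arg1, arginase of the urea cycle and a classical gene of alternative activation, measured 35.0, 19.6, 15.4, 41.3 and 13.6 CPM in vehicle and 11.8, 4.80, 18.8, 5.34 and 7.48 with quinpirole. In 4 of 5 quinpirole libraries it was below every vehicle library, and quinpirole replicate 3 lay inside the vehicle range. The means were 25.0 ± 12.4 and 9.64 ± 5.81 (SD, n = 5 each; log2 fold change -1.32, SE 0.38, adjusted p by limma = 0.237), and no other of the 34 members had a larger absolute fold change. DESeq2 on the recovered reads called it (log2 fold change -1.37, adjusted p = 0.0425), while its adjusted p by edgeR was 0.251. Leaving out single libraries gave values from -1.58 to -1.11, and the muscle covariate gave -0.96. Arg1 lies on chromosome 10 from 24915221 to 24927484 on the minus strand.

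Markers of stressed keratinocytes, which can themselves express Arg1, had lower values with quinpirole as well: 10 of 10 tested were below 0, with a median log2 fold change of -0.90. By limma 9 of these markers were lower at an unadjusted p under 0.05 (background 4.47%), and 7 were without vehicle replicate 2 (background 5.15%). Their summed level, without Il36a, which was not found in the values, was 21238 to 42809 CPM in vehicle and 11400.4 to 25705 with quinpirole. Over the 10 libraries Arg1 and their mean had Pearson's r = 0.72 (permutation p = 0.0174, 0.0372 adjusted over 15 relations) and Spearman's rho = 0.81 (0.00763, 0.0229 adjusted), and r was 0.72 without quinpirole replicates 1 and 2. Both differ between the groups, which enters this relation, and as deviations from the group means r was 0.40 (permutation p = 0.277, 0.277 adjusted). The marker list also holds S100a8 and S100a9, which neutrophils express too, and the part of keratinocytes in the Arg1 values was not tested.

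Chil3, a chitinase-like protein also called Ym1, measured 3.52, 1.28, 5.499, 4.88 and 2.51 CPM in vehicle and 6.42, 3.49, 8.85, 11.3 and 9.16 with quinpirole. Here 4 of 5 quinpirole libraries were above every vehicle library, and quinpirole replicate 2 lay inside the vehicle range. The means were 3.54 ± 1.72 and 7.85 ± 2.99 (SD, n = 5 each; log2 fold change 0.98, SE 0.32, adjusted p by limma = 0.281), and the log2 fold change was 0.75 without vehicle replicate 2 and 0.59 with the muscle covariate. Of its 50-base stretches 28.5% occur in other genes, 17.9% in Chil4 and 14.1% in Gm6522, which leaves its level uncertain where reads were divided. Neutrophils also carry Chil3, and with their markers Chil3 had r = 0.0013 over all 10 libraries (permutation p = 0.997, 0.997 adjusted; rho = 0.030, permutation p = 0.947, 0.947 adjusted; r = 0.22 without vehicle replicates 1 and 4). Chil3 was higher and these markers lower with quinpirole, which enters that value, and as deviations from the group means r was 0.57 (permutation p = 0.112, 0.159 adjusted). The marker list also holds genes that monocytes express, and the part of neutrophils in the Chil3 values was not tested. Retnla, a resistin-like protein that type 2 cytokines induce, was the most variable member, at 11.8, 4.98, 3.40, 2.77 and 41.6 CPM in vehicle and 11.4, 10.0, 13.3, 36.2 and 15.2 with quinpirole. Vehicle replicate 5 was the highest of all libraries and vehicle replicate 4 the lowest. The log2 fold change was 0.89 (95% interval -0.41 to 2.19), 1.46 without vehicle replicate 5 and -0.29 with the muscle covariate. Nos2, the inducible nitric oxide synthase of classical activation, measured 1.51, 1.57, 0.655, 2.24 and 1.54 CPM in vehicle and 1.31, 1.02, 0.681, 0.762 and 1.42 with quinpirole, or 5 to 17 reads per library, with a log2 fold change of -0.28 (95% interval -0.71 to 0.15).

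Trem2 and Gpnmb mark macrophages that handle lipid. Trem2, a receptor that signals through DAP12, measured 2.39, 0.711, 0.655, 2.11 and 0.838 CPM in vehicle and 1.66, 3.64, 1.63, 1.91 and 1.42 with quinpirole, or 5 to 25 reads per library, and quinpirole replicate 2 was the highest (log2 fold change 0.41, 95% interval -0.15 to 0.98). Gpnmb, a melanosomal and lysosomal glycoprotein, measured 56.5, 63.0, 75.9, 53.8 and 32.8 CPM in vehicle and 67.0, 75.2, 36.8, 29.2 and 38.5 with quinpirole (log2 fold change -0.23, 95% interval -0.83 to 0.37). It was low in vehicle replicate 5 and in quinpirole replicates 3, 4 and 5. Melanocyte markers had lower values in 9 of 9 tested genes (median log2 fold change -0.87, or 0.22 with the muscle covariate and -0.11 with the hair covariate). Their summed levels were 50.6 to 532 CPM in vehicle and 49.4 to 337 with quinpirole. Gpnmb and their mean had Pearson's r = 0.73 (permutation p = 0.0202, 0.0379 adjusted over 15 relations) and Spearman's rho = 0.72 (0.0234, 0.0586 adjusted), with r = 0.45 without vehicle replicate 5 and quinpirole replicate 4 and 0.71 (permutation p = 0.0292, 0.0731 adjusted) within groups. With the hair shaft mean as a covariate the log2 fold change of Gpnmb was -0.062, and with the muscle mean 0.33. The part of melanocytes in the Gpnmb values was not tested.

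Genes that act with the members were taken from 6 further lists, and limma called none of them over all genes tested. The shares over all tested genes at an unadjusted p under 0.05 were 11.4% in all, 6.92% higher and 4.47% lower. Below that p stood 4 of 14 genes of monocyte recruitment and growth factors (3 higher and 1 lower), 3 of 12 of the alternative activation pathway (all higher), 4 of 12 of the clearance of dying cells (3 higher and 1 lower), 1 of 15 signalling partners of Fc receptors and DAP12 (lower), 1 of 11 transcription factors (higher) and 1 of 18 genes of lysosomes and lipid handling (higher). The median log2 fold changes were, in the same order, 0.13, 0.29, 0.13, -0.13, 0.046 and 0.053, beside -0.0021 over all tested genes. Without vehicle replicate 2 the counts were 6 (3 higher and 3 lower), 3 (2 higher and 1 lower), 5 (3 higher and 2 lower), 5 (all lower), 1 (lower) and 2 (1 higher and 1 lower). The shares over all tested genes were 11.0% in all, 5.88% higher and 5.15% lower in that fit. The medians were then 0.053, 0.20, 0.066, -0.33, 0.040 and -0.014. With the muscle covariate the counts were 0, 1, 2, 0, 0 and 1, and the medians 0.045, -0.016, 0.091, -0.23, -0.043 and 0.0011.

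Ccl2 and Ccl7, ligands of CCR2, had higher values with quinpirole, while Ccr2 itself had a log2 fold change of 0.057. Ccl2, the main monocyte chemoattractant, measured 7.41, 3.27, 5.37, 8.18 and 7.40 CPM in vehicle and 10.3, 17.6, 9.12, 30.0 and 12.6 with quinpirole. The groups did not overlap, as for 1.34% of tested genes on the higher side. The log2 fold change was 1.14 (SE 0.31, limma adjusted p = 0.227), or 0.95 without vehicle replicate 2 and 0.74 with the muscle covariate. DESeq2 called Ccl2 (adjusted p = 0.0152), where it called 1.51% of tested genes. Ccl7, a related chemokine, measured 10.4, 4.13, 7.99, 14.1 and 6.98 CPM in vehicle and 13.2, 18.9, 11.6, 45.4 and 16.3 with quinpirole, highest in quinpirole replicate 4 (log2 fold change 1.10, SE 0.36, adjusted p by limma = 0.277; 0.71 with the muscle covariate). Il34, the other ligand of CSF1R, stood at 0.18 (95% interval -0.30 to 0.66), the fractalkine gene Cx3cl1 at 0.14 (-0.12 to 0.39) and Csf2rb, the shared receptor chain for GM-CSF, IL-3 and IL-5, at -0.22 (-0.74 to 0.29). Without vehicle replicate 2 Il34 stood at 0.058 and Csf2rb at -0.41.

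Of the alternative activation pathway, Clec10a and Mgl2, the galactose-type lectins of dermal macrophages and dendritic cells, measured 27.8 ± 14.7 and 4.08 ± 2.26 CPM in vehicle and 42.6 ± 8.41 and 7.84 ± 1.74 with quinpirole (SD, n = 5 each), with log2 fold changes of 0.72 and 0.89 (limma adjusted p = 0.377 and 0.250), or 0.45 and 0.55 with the muscle covariate. Pparg, a lipid-sensing nuclear receptor that sebocytes and adipocytes also use, measured 24.5, 22.2, 19.6, 26.8 and 24.3 in vehicle and 32.3, 31.4, 28.2, 33.2 and 36.6 with quinpirole, without overlap (background 1.34% on the higher side). Its log2 fold change was 0.45 (SE 0.10, adjusted p by limma = 0.182). DESeq2 called Pparg (adjusted p = 0.0182), where it called 1.51% of tested genes. Il4ra, the receptor chain for IL-4 and IL-13, stood at 0.23 (95% interval -0.17 to 0.62; 0.078 without vehicle replicate 2).

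The receptors for dying cells differed in direction. Mertk, a TAM receptor kinase of resident macrophages, measured 8.92, 12.9, 13.6, 10.4 and 8.80 CPM in vehicle and 7.37, 7.86, 6.54, 3.56 and 7.23 with quinpirole, where all quinpirole libraries were below all vehicle libraries (log2 fold change -0.69, SE 0.20, adjusted p by limma = 0.237; -0.35 with the muscle covariate). Axl, its relative, measured 140.4, 118, 145, 119 and 129 CPM in vehicle and 153, 158, 147, 146 and 158 with quinpirole, with all quinpirole libraries above all vehicle libraries (log2 fold change 0.23, SE 0.080, adjusted p by limma = 0.300; 0.20 without vehicle replicate 2). Their shared ligand Gas6 stood at 0.45 (SE 0.16, limma adjusted p = 0.307) and the scavenger receptor Stab1 at 0.16 (95% interval -0.19 to 0.50; 0.020 without vehicle replicate 2). The background for groups that do not overlap was 1.34% of tested genes on the higher side and 0.859% on the lower.

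In the signalling lists, Fcer1g, the chain through which activating Fc receptors signal, stood at 0.030 (95% interval -0.35 to 0.41), the inhibitory receptor Fcgr2b at 0.31 (-0.34 to 0.95), the kinase Syk at -0.30 (-0.60 to -0.0058) and Trem1, which monocytes share with neutrophils, at -0.93 (-1.88 to 0.028). Without vehicle replicate 2 Fcer1g stood at -0.066 and Fcgr2b at 0.066. Trem1 measured 12.3 CPM in vehicle replicate 4, well above the other vehicle libraries, and its log2 fold change was -0.53 without that library. On the recovered reads edgeR gave -1.74. Among the transcription factors, Irf8 had -0.061 (-0.63 to 0.51) and Cebpb 0.10 (-0.22 to 0.43), or -0.23 and 0.050 without vehicle replicate 2. Apoe, the apolipoprotein of lipid-laden macrophages and other skin cells, measured 917, 811, 690.2, 848 and 1064 CPM in vehicle and 1051, 1739, 1099, 1129.9 and 1188 with quinpirole (log2 fold change 0.51, SE 0.16, adjusted p by limma = 0.267), and 4 of 5 quinpirole libraries lay above all vehicle libraries. The galectin Lgals3 stood at 0.16 (-0.077 to 0.40), the cathepsin Ctss at 0.086 (-0.40 to 0.58) and osteopontin, Spp1, at -0.085 (-0.66 to 0.49). Without vehicle replicate 2 Ctss stood at -0.14 and Spp1 at -0.25.

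Other leukocytes are set beside these genes by their marker lists. Every gene in the deposited values had at least 10 recovered reads in all, so no marker found there could be at 0 throughout. Not found were Ly6g, Elane and Ngp of neutrophils, Epx and Prg2 of eosinophils, and Trac, Trbc1, Trbc2 and Trdc of T cells. The summed level in vehicle and with quinpirole was for 10 pan-leukocyte genes 448 to 946 and 631 to 933 CPM with a median log2 fold change of 0.052 (7 of 10 above 0). It was for 16 dendritic and Langerhans cell genes 749.6 to 1596 and 939 to 1506 CPM with a median log2 fold change of 0.080. For 10 tested T cell genes it was 35.2 to 74.0 and 39.1 to 80.9 CPM (median -0.14), and for 6 tested eosinophil genes 24.7 to 98.6 and 34.1 to 56.5 CPM (median -0.12). Mast cell markers had 7 of 9 tested above 0 (summed level 94.9 to 202 and 145 to 248 CPM, median 0.62), and neutrophil markers 1 of 13 (summed level 2389.5 to 4503 and 2114 to 4109 CPM). Blood endothelial markers had 1 of 9 above 0 (median -0.42). Without vehicle replicate 2 the median was -0.15 for pan-leukocyte, -0.093 for dendritic and Langerhans, -0.25 for T cell, -0.21 for eosinophil, 0.61 for mast cell and -0.84 for neutrophil markers. The dendritic and Langerhans median was -0.14 with the hair and -0.074 with the muscle covariate, and the pan-leukocyte median -0.055 and -0.15. Cd68 and the pan-leukocyte mean had r = 0.54 (permutation p = 0.109, 0.137 adjusted) and rho = 0.27 (permutation p = 0.449, 0.481 adjusted) over the 10 libraries, and r = -0.13 without vehicle replicates 2 and 4 and 0.68 (permutation p = 0.0708, 0.133 adjusted) within groups. Csf1r and the hair shaft mean had r = -0.46 (permutation p = 0.176, 0.188 adjusted) and rho = -0.44 (permutation p = 0.205, 0.257 adjusted), and r = -0.76 without vehicle replicate 5 and quinpirole replicate 4 and -0.44 (permutation p = 0.241, 0.258 adjusted) within groups. The part of other cells in the members' values was not tested.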

How the data were processed

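Total RNA of whole skin was sequenced as strand-specific libraries after removal of ribosomal RNA, per the labels' protocols. Tools named in the submitters' processing notes are RSEM 1.3.0, Trimmomatic 0.38, edgeR and Bowtie2, besides mm10 as build; neither their roles nor the annotation is given in the sources used here. The authors deposited normalised counts per gene (a signal), in which 100% of values came out as whole reads (tolerance 1e-06), so reads were recovered. Factors implied by the library totals equalled TMM factors of edgeR. Values were divided by a single constant from the mean library total to give normalised CPM.

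Genes with at least 1 CPM in at least 5 libraries were tested with limma 3.58.1 (mean-variance trend, two-sided, R 4.3.3) on log2(CPM + 1), with Benjamini-Hochberg adjustment over 14548 genes and a threshold of 0.05. Vehicle and quinpirole groups came from the sample titles. Relations over libraries used 100000 permutations. Gene positions, exon lengths and shared 50-base stretches came from GENCODE vM21 (GRCm38, which is mm10), and promoters from RefSeq. The members and lists were chosen with earlier results of these data known. All 34 members and 23 genes of 6 pathway lists are named, besides any called gene of those lists, and 1 further listed gene is not reported here; the motif search and the relations within groups were added after the values were seen. Tried besides were pseudocounts of 0.1 and 5, other filters, scalings and variance models, edgeR 4.0.16, DESeq2 1.42.0, tissue covariates, the replicate number as a block, and leaving out libraries. The test was checked on simulated data. Figures were drawn with matplotlib 3.10.9.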

Additional observations from a re-analysis of the deposited data

Results flagged for a closer look

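In 8 of 114 groups of 5 libraries, counted over the 34 members and the 23 named pathway genes, 1 library lay far from the other 4 on the log2 scale, its gap to the nearest, as a share of the group's range, exceeding Dixon's 95% critical value. Chance gives about 1 in 20 groups. Of these, 3 fell on vehicle replicate 2, each on the low side: Aif1 at 9.82 CPM against 16.2 to 17.8 in the other vehicle libraries, Msr1 at 4.84 against 14.2 to 19.97, and Stab1 at 96.3 against 144 to 170.1. Quinpirole replicate 2 was high for Lyz1, at 45.5 against 28.6 to 32.3 CPM, for Trem2, at 3.64 against 1.42 to 1.91, and for Apoe, at 1739 against 1051 to 1188. Cd68 was low in quinpirole replicate 1, at 33.9 against 46.4 to 52.4 CPM, and Mertk in quinpirole replicate 4, at 3.56 against 6.54 to 7.86. The cause of these values was not tested.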

How the results depend on the processing

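Over 24 alternatives, 21 of 34 members kept their direction and 13 did not, the largest of these being Retnla. The median over the members, 0.22 in the main fit, ran from 0.069 with the muscle covariate to 0.30 without quinpirole replicate 3. The SD between library medians was 0.29, larger than the main median, so it could not mark a fall to 0 as a move. Members called numbered 0 except for 1 with DESeq2, which called 219 genes in all. The count of 3 called genes became 5 with a pseudocount of 0.1, with library totals alone or with edgeR, 6 without a filter, 9 without the trend, 21 with array weights, 14 with the hair covariate, and 0 with the muscle covariate, the replicate block or without both libraries numbered 4. Leaving out single libraries gave 0 to 10, with 1 without vehicle replicate 3, 10 without vehicle replicate 5 and 0 without any other. Whether the replicate numbers pair the samples was not settled. The deviations of same-numbered libraries correlated from -0.24 to 0.22. Vehicle replicate 1 correlated best with its own number, while vehicle replicates 2 to 5 had another best partner (r = 0.59, 0.64, 0.17 and 0.52). The block called 0 members, as did the main fit, and had 10 at an unadjusted p under 0.05 by limma. Of the 8 members at an unadjusted p under 0.05, 7 were also under it without vehicle replicate 2 or with the hair covariate, and 2 with the muscle covariate. Log2 fold changes whose sign turned were, with the hair covariate, Spi1 -0.12, Plac8 -0.20, Ms4a6c -0.053, Cd163 -0.0073, Il34 -0.022, Fcer1g -0.056, Cebpb -0.023 and Ctss -0.0052; with the muscle covariate, Spi1 -0.17, Aif1 -0.064, Tyrobp -0.010, Ccr2 -0.13, Plac8 -0.36, Ms4a6c -0.16, Retnla -0.29, Gpnmb 0.33, Il34 -0.036, Fcer1g -0.16, Irf8 0.15, Cebpb -0.058 and Ctss -0.086; without both libraries numbered 4, Adgre1 0.0054, Spi1 -0.016, Ms4a7 0.049, Fcer1g -0.0032, Irf8 0.15 and Spp1 0.12; with array weights, Spi1 -0.073, Ccr2 -0.083 and Fcer1g -0.066; with edgeR, Ccr2 -0.055 and Plac8 -0.057; and with DESeq2, Ccr2 -0.049 and Plac8 -0.051. Over single libraries left out, values that crossed 0 ran, for Ms4a7 -0.17 to 0.090, for Irf8 -0.23 to 0.068, for Csf1r -0.025 to 0.25, for Spi1 -0.078 to 0.12, for Aif1 -0.027 to 0.18, for Tyrobp -0.034 to 0.27, for Ccr2 -0.20 to 0.25, for Plac8 -0.25 to 0.15, for Ms4a6c -0.10 to 0.15, for Lyz1 -0.067 to 0.21, for Cd163 -0.057 to 0.23, for Fcer1g -0.079 to 0.13, for Ctss -0.14 to 0.21, for Adgre1 -0.19 to 0.067 and for Spp1 -0.25 to 0.15. The causes were not tested. At this depth a gene with 5 to 17 reads per library, such as Nos2, carries large counting error.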
